A study of Mus musculus with 4 samples.

Results

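Mitosis genes are described here across 4 arrays of sorted tumor endothelial cells. The tumors were B16, a mouse melanoma line from strain C57BL/6 that makes pigment. The group holds 45 genes for mitotic kinases, spindle checkpoint proteins, kinetochore proteins, kinesins and chromosome structure proteins, chosen by name. Of these, 44 had a probe set with their symbol in the platform annotation, out of 18193 named genes on the array, and Ccnb1 was not analysed here. The 44 genes had 97 probe sets, and the probe set with the highest mean of the 4 arrays stood for its gene. Levels are log2 RMA values, on which a step of 1 is a doubling, and they were not compared between genes because each probe set has its own brightness.

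The hosts were C57BL/6 mice with a multicolor Cre reporter, which after tamoxifen marks a cell and its progeny with a color. A color can arise more than once, so sharing it does not prove descent from 1 cell. At 2 weeks the tumors were made into cell suspensions, from which CD45-CD31+CD144+ cells were taken by FACS. The most frequent clone (clonal expansion) and the least frequent clone (clonal extinction) of tumor A and of tumor B gave 1 Affymetrix Mouse430_2 array each. All 4 arrays thus share the strain, the tumor line, the reporter and tamoxifen. Not given in the sources used here are the Cre driver, the age of the mice and how many animals stand behind an array. With 2 arrays per clone class, the number of arrays limits the precision.

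The arrays did not hold endothelial transcripts alone. All 13 measured melanoma markers, among them the pigment genes Dct, Tyr and Pmel, had a higher level on the expansion array of tumor A and the extinction array of tumor B than on the other two. These 4 arrays are called expansion A, extinction A, expansion B and extinction B. Endothelial markers ran the other way for 19 of 20 genes, lower in expansion in tumor A and higher in tumor B, and 1 had the melanoma signs. Their mean log2 level over 20 genes was 8.50 on expansion A, 10.64 on extinction A, 11.05 on expansion B and 9.40 on extinction B. All 8 fibroblast markers and 7 of the 10 pericyte and smooth muscle markers had the signs of the 19. The median over every probe set tested, which is the median level used from here on, was 5.83. The leukocyte gene Ptprc, which encodes the CD45 sorted against, lay between 3.63 and 4.27. At or above the median level were the means of 6 of the 14 leukocyte markers, and of 11379 of the 18193 named genes. The brightest of the 14, Csf1r, the receptor of macrophage growth factor, lay between 8.11 and 9.97. In such mixed RNA, fewer dividing cells and less of a transcript per cell cannot be told apart, nor can the cell type that a mitosis transcript came from.

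Mitosis genes are transcribed late in the cell cycle and are silent or low in resting cells, which most endothelial cells of an adult vessel are. In sprouting tumor vessels some endothelial cells divide, as do the melanoma cells around them. Cyclin B bound to Cdk1 starts mitosis, the spindle checkpoint holds it until each chromosome is attached, and the anaphase-promoting complex with Cdc20 then ends it. Many of these genes share a promoter layout, in which a cell cycle homology region (CHR, here the letters TTTGAA) near the start binds the MuvB complexes and CCAAT boxes upstream bind NF-Y.

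That layout was looked for in RefSeq promoter windows of the GRCm38.p6 build, which run from 250 bases before to 50 after a gene's start. The table held 42 windows for 39 of the 45 genes, all but Tpx2, Kif20a, Ccna2, Smc4, Aurkb and Esco2. TTTGAA, on either strand, was present in 27 of the 42 windows (64.3%) and in 17.9% of all 32851 windows of the table. CCAAT, on either strand, was present in 31 of the 42 (73.8%) and in 37.4% of all windows. Both stood together in 23 of the 42 (54.8%) and in 6.95% of all. The variant TTTAAA, which reads the same on both strands, was present in 11 of the 42 (26.2%) and in 13.2% of all. No matches of different motifs overlapped in the 42 windows. Within 50 bases of the start, TTTGAA was found in 25 of the 42 (59.5%) and in 4.94% of all windows. These shares describe the letters of the windows, and binding was not measured.

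**Figure D1:**
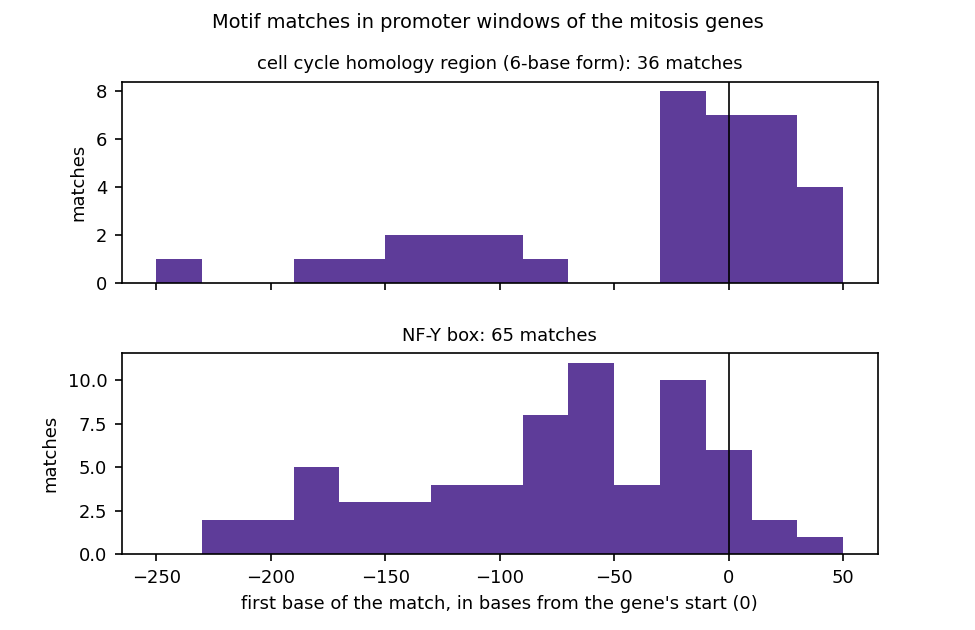
Histograms of the first base of each motif match in the 42 promoter windows of mitosis genes, in bases from the gene's start (0), with 20-base bins. The upper panel holds 36 matches of the CHR form, most of them near the start, and the lower panel holds 65 matches of the NF-Y box, spread further upstream, with matches in overlapping windows of 1 gene (Ect2 and Prc1) counted in each.

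The last 120 bases before the start are shown for genes with TTTGAA in the last 40 bases and a CCAAT box in the same 120 bases, and for Cenpe, which had the largest clone difference among the genes with a window and no TTTGAA in it. Prc1 met the first rule too and is not shown. Capitals mark TTTGAA (or TTCAAA, its reverse complement) and CCAAT (or ATTGG, its reverse complement). The windows, 5′ to 3′ on the gene's strand, were chr4:118437344-118437463 (minus strand) for Cdc20, chr10:69352913-69353032 (minus) for Cdk1, chr11:99024190-99024309 (minus) for Top2a, chr2:164769809-164769928 (plus) for Ube2c, chr19:37376262-37376381 (plus) for Kif11 and chr3:135212443-135212562 (plus) for Cenpe.
Cdc20: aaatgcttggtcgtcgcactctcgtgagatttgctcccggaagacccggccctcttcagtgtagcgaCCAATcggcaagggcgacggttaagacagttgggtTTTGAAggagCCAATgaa
Cdk1: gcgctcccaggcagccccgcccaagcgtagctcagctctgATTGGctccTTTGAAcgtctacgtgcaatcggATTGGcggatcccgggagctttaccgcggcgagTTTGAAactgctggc
Top2a: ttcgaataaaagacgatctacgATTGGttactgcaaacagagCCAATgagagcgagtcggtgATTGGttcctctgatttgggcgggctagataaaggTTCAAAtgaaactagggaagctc
Ube2c: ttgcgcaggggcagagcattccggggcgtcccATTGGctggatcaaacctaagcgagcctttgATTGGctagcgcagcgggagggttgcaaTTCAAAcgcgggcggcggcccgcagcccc
Kif11: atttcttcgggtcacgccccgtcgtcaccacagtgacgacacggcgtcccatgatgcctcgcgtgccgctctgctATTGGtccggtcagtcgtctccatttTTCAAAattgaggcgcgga
Cenpe: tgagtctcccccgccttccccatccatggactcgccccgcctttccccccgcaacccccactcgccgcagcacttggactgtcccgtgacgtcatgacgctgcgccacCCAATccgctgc
The first base of the TTTGAA match nearest the start lay at -18 in Cdc20, -15 in Cdk1, -23 in Top2a, -29 in Ube2c and -19 in Kif11, counted from the start base as 0.

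Across the 4 arrays the mitosis genes were highest on extinction A. There 37 of the 44 genes had their highest level, against 27.1% of all named genes and 29.4% of those at or above the median level, and none had its lowest, against 19.5%. None was highest on expansion B, where 23 of the 44 were lowest, against 24.2% of all. The median deviation from a gene's own mean was -0.10 on expansion A, 0.54 on extinction A, -0.35 on expansion B and -0.08 on extinction B. Each gene's range over the 4 arrays ran from 0.41 for Pttg1 to 2.34 for Kif20a, with a median of 1.05.

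**Figure D2:**
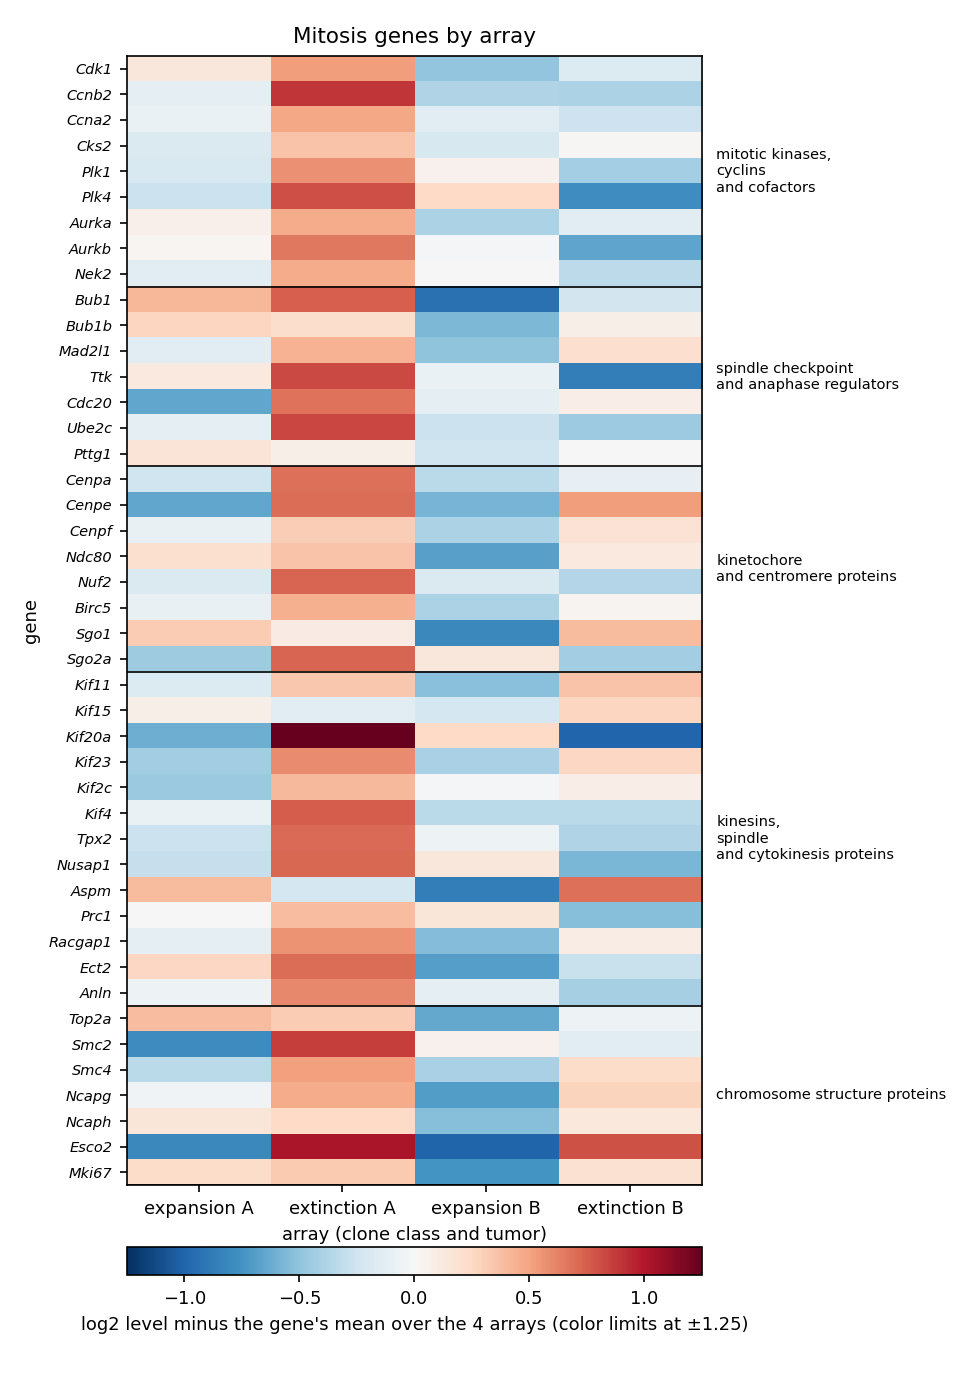
Heat map of the 44 mitosis genes (rows, by role) on the 4 arrays (columns), as the log2 level minus the gene's mean of the 4 arrays. Extinction A is the highest array for 37 genes, and expansion B is the lowest array for 23.

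The 4 arrays leave 6 ways to name a gene's highest pair of arrays, and the mitosis genes filled them unevenly. For 14 genes (31.8%, against 9.18% of all named genes) both extinction arrays were the higher pair. For 17 genes (38.6%, against 14.2%) it was both tumor A arrays. For 10 genes (22.7%, against 32.6%) it was extinction A and expansion B, the arrays with less melanoma and more endothelial and fibroblast signal. For 3 genes, Aspm, Kif15 and Sgo1 (6.82%, against 22.8%), it was expansion A and extinction B, the arrays rich in melanoma signal. For no gene was it both expansion arrays (11.8% of all) or both tumor B arrays (9.34% of all). The genes of 1 program are not independent of each other, so these counts are a description without a test.

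Other marks of extinction A stood beside this pattern. All 10 pericyte and smooth muscle markers also had their highest level there, with a mean log2 level of 11.30 against 10.38, 10.57 and 10.14 on expansion A, expansion B and extinction B. The difference between the 3 prime and 5 prime control probe sets, a sign of RNA shortening, was smallest on extinction A for Actb (2.18, against 2.81, 2.72 and 2.68 on expansion A, expansion B and extinction B) and for Gapdh (2.49, against 2.58, 3.21 and 2.90). The leukocyte marker Cd53 ran this way, at 7.01 on expansion A, 8.19 on extinction A, 5.48 on expansion B and 6.36 on extinction B. Extinction A was the highest array for only 2 of the 14 leukocyte markers. Csf1r was highest on extinction B and lowest on expansion A. The 18S rRNA signal, a mean of 3 control probe sets, was lowest on extinction A, at 10.77. It was 11.64, 11.10 and 11.86 on expansion A, expansion B and extinction B. The part of any of these in the mitosis values was not tested. Expansion B, with the most endothelial signal, had the lowest median of the mitosis genes, while extinction A, with the next most, had the highest. In tumor A both lists were lower in expansion, with a median clone difference of -0.61 for the mitosis genes and -2.35 for the endothelial markers. In tumor B these medians differed in sign, at -0.26 and 1.66. There, 27 mitosis genes were lower in expansion and 17 were higher, as the endothelial median was. The part of endothelial content in the mitosis values was not tested either.

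**Figure D3:**
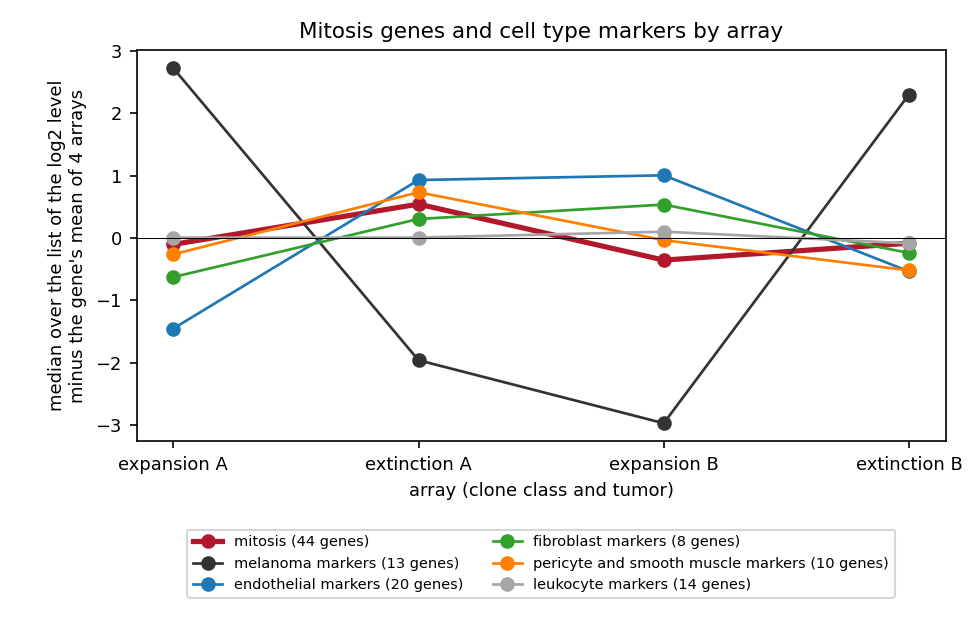
Median over each gene list of the log2 level minus the gene's mean of the 4 arrays, with a line joining the values of 1 list across the 4 arrays. Melanoma and endothelial markers go opposite ways, and the 44 mitosis genes peak on extinction A (0.54) and are lowest on expansion B (-0.35).

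The study set the most frequent against the least frequent clone. In tumor A, 38 of the 44 mitosis genes were lower in expansion (53.7% of all named genes were), and in tumor B 27 were (42.9% of all). Both tumors showed a lower level in expansion for 21 genes, against 14.1% of all named genes and 11.9% of those at or above the median level, and none was higher in both, against 17.3%. For 14 of the 44, all of them among these 21, both expansion arrays lay below both extinction arrays, which held for 9.11% of all. Among all named genes, 2570 were lower in both tumors, and for 1658 of these the classes did not overlap either. Of the mitosis genes outside the 21, 17 were lower in tumor A and higher in tumor B (39.5% of all), and 6 went the other way (28.6% of all). The median log2 clone difference of the 44 genes was -0.61 for tumor A, -0.26 for tumor B and -0.40 for the mean of both, beside 0.02 for that mean over all named genes. At least 2-fold lower in expansion were 10 genes for tumor A (10.4% of all) and 4 for tumor B (4.77% of all). At least 2-fold higher were 0 for tumor A (5.89% of all) and 2 for tumor B (9.68% of all). Esco2 and Cenpe were 2-fold lower in both tumors, as were 0.077% of all, while Kif20a and Plk4 were 2-fold apart in opposite directions, as were 8.78% of all.

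No mitosis gene passed limma's test (adjusted p = 1 for all 44 after Benjamini-Hochberg adjustment across 45037 probe sets), and 0.0% of all probe sets did in either direction. At an unadjusted p under 0.05 there were 6 of the 44, all lower in expansion, against 1.04% of all probe sets in either direction and 0.473% of all named genes in that direction: Esco2, Cenpe, Kif23, Smc4, Kif11 and Mad2l1. The values rest much on 1 array. Without extinction A the median difference of the 44 genes was -0.13 with 27 below 0, and without extinction B it was -0.73 with 43 below 0. Among the 12 genes with 1 sign in both tumors and a mean difference of at least 0.5 in size, leaving out extinction A took Cdc20 to -0.47, Racgap1 to -0.42, Cenpa to -0.19 and Bub1 to -0.03. Leaving out expansion B took Ncapg to -0.42, Mki67 to -0.03 and Bub1 to 0.16, and leaving out expansion A took Cdc20 to -0.50.

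**Figure D4:**
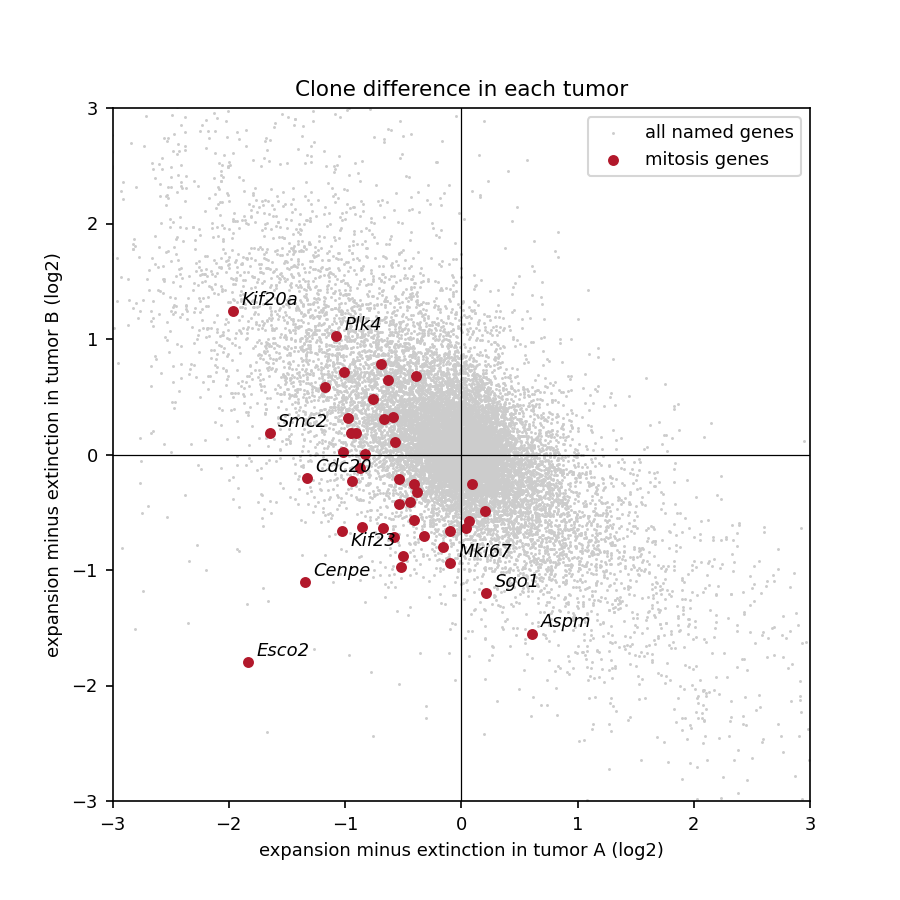
Clone difference (expansion minus extinction, log2) in tumor A on the horizontal and in tumor B on the vertical axis, for all named genes (grey) and the 44 mitosis genes (red). Grey points run from upper left to lower right, while 21 red points lie below 0 on both axes, led by Esco2 and Cenpe, and 263 named genes lie outside the axes, which end at 3.

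Chromosome structure proteins had a median clone difference of -0.73, with 5 of 7 lower in expansion in both tumors. Esco2 is an acetyltransferase that fixes cohesin on newly replicated sister chromatids. It was at 3.93 on expansion A, 5.76 on extinction A, 3.74 on expansion B and 5.53 on extinction B. Expansion minus extinction was -1.81 ± 0.18 (SE, 2 arrays in each class). Each SE given here is limma's, moderated with the variance of all probe sets, and is not the plain spread of a gene's arrays. Both expansion arrays lay below both extinction arrays, but all 4 levels were under the median of all probe sets, and Esco2 and Kif15 were the members whose mean was. The other Esco2 probe set had the same signs, at -0.66 (tumor A) and -0.72 (tumor B).

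The condensin ATPase subunit Smc4 read 10.33 and 10.26 on expansion A and B, against 11.18 and 10.89 on extinction A and B, a difference of -0.74 ± 0.18 (SE). All 3 of its probe sets had these signs, 1 of them barely, at -0.09 and -0.0023. Ncapg, a regulatory condensin subunit, read 7.69 and 7.04 on expansion A and B, against 8.21 and 8.01 on extinction A and B, or -0.74 ± 0.29 (SE), with the same signs in its second probe set. The clone classes did not overlap for the probe set that stood for each gene, but they did for the Smc4 probe set just named, at 10.34 on expansion A and 9.90 on extinction B.

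Smc2, the partner of Smc4 in condensin, was at 8.87 on expansion A, the lowest, 10.52 on extinction A, 9.71 on expansion B and 9.52 on extinction B. Its clone difference was -1.65 for tumor A, and for tumor B it was 0.19. Of the 2 further Smc2 probe sets above the median level, 1 had these signs (-1.31 and 0.50). The other was lower in expansion in both tumors (-1.22 and -0.11). Mki67, which coats mitotic chromosomes and is the usual proliferation marker, was at 11.28, 11.38, 10.31 and 11.25 in the same array order, so that expansion B alone stood low. Top2a, the topoisomerase that untangles sister chromatids, was at 11.31, 11.24, 10.29 and 10.86, with both tumor A arrays above both tumor B arrays. Their differences were -0.52 ± 0.40 (SE) and -0.25 ± 0.44 (SE), and neither passed the test. Another Top2a probe set above the median level was at 8.10, 7.76, 7.49 and 8.78, without that order of the tumors. Ncaph was lower in expansion in both tumors as well, by -0.10 and -0.66.

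Kinetochore and centromere proteins were lower in expansion in both tumors in 5 of 8 cases, with a median difference of -0.49. The kinetochore motor Cenpe read 6.56 and 6.63 on expansion A and B, against 7.91 and 7.73 on extinction A and B, a difference of -1.23 ± 0.16 (SE). The classes did not overlap for this probe set. Its other probe set, also above the median level, read 7.46 and 6.77 for expansion A and B against 7.18 and 6.84 for extinction A and B. The difference in Cenpe was thus seen with 1 of its 2 probe sets.

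Cenpa, the histone variant that marks centromeres, was at 10.07, 11.01, 9.98 and 10.22 on expansion A, extinction A, expansion B and extinction B, or -0.59 ± 0.33 (SE). Extinction A stood above the other arrays, which lay close together. Another Cenpa probe set above the median level had differences of 1.03 (A) and -2.43 (B), the signs of the melanoma markers. Birc5 (survivin), of the chromosomal passenger complex, was at 9.14, 9.67, 8.83 and 9.26, or -0.48 ± 0.24 (SE), without overlap of the classes.

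Of the other kinetochore genes, Cenpf, at -0.41 (tumor A) and -0.57 (tumor B), and Ndc80, at -0.16 and -0.80, were lower in expansion in both. Nuf2, which pairs with Ndc80 to hold microtubules, differed by -0.91 and 0.19. The shugoshins, which protect centromeric cohesin, went opposite ways: Sgo1 by 0.21 and -1.20, and Sgo2a by -1.17 and 0.58.

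Among the kinesins and the spindle and cytokinesis proteins, 5 of 13 were lower in expansion in both tumors. Kif23, a motor of the central spindle in cytokinesis, read 8.20 and 8.23 on expansion A and B, against 9.23 and 8.89 on extinction A and B, a difference of -0.84 ± 0.19 (SE). Its binding partner Racgap1 read 7.86 and 7.43 on expansion A and B, against 8.54 and 8.07 on extinction A and B, or -0.65 ± 0.28 (SE). For these probe sets, every expansion array lay below every extinction array. The 3 probe sets of Racgap1 shared the signs, but in the other one above the median level the classes overlapped and the difference was -0.27. The 2 further probe sets of Kif23, both below the median level, did not share the signs. With all probe sets of a gene averaged, the difference was -0.34 for Kif23 and -0.34 for Racgap1.

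Kif11, the motor that pushes spindle poles apart, read 6.71 and 6.35 on expansion A and B, against 7.21 and 7.23 on extinction A and B, or -0.69 ± 0.19 (SE). Its 2 other probe sets had differences of -0.62 and 0.28, and of 0.15 and -1.29, for tumors A and B, so the direction within a tumor changed with the probe set. Kif2c and Ect2 were the others lower in both tumors, by -0.87 and -0.11 and by -0.44 and -0.41. The chromosome motor Kif4 and the contractile ring protein Anln were lower in expansion for tumor A alone, at -0.83 and -0.66, beside 0.0047 and 0.31 for tumor B.

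Kif20a, a kinesin of the cleavage furrow, had the widest range. It was at 5.94 on expansion A, 7.90 on extinction A, 6.80 on expansion B and 5.56 on extinction B, with clone differences of -1.96 (A) and 1.24 (B). It was higher on the arrays with more endothelial and fibroblast signal, as were the spindle proteins Tpx2, Nusap1 and Prc1. The differences of Tpx2, Nusap1 and Prc1 ran from -1.01 to -0.39 in tumor A and from 0.32 to 0.71 in tumor B. Aspm, a spindle pole protein, had the reverse signs, at 8.71 on expansion A, 8.10 on extinction A, 7.45 on expansion B and 9.00 on extinction B, and its next brightest probe set shared them (0.94 and -1.30). Kif15 also had the reverse signs, by 0.21 and -0.49. The second brightest probe set of Tpx2, also above the median level, was lower in expansion in both tumors, by -0.84 and -0.33.

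Kinases, cyclins and their cofactors were all at their highest on extinction A, 9 of 9. Of the 9, Cdk1, Cks2 and Aurka were lower in expansion in both tumors, Cks2 by -0.54 and -0.21 and Aurka by -0.40 and -0.25. Cdk1, the kinase that drives entry into mitosis, was at 9.83, 10.21, 9.19 and 9.52 on expansion A, extinction A, expansion B and extinction B, a difference of -0.35 ± 0.38 (SE). Both tumor A arrays were above both tumor B arrays, and the clone classes overlapped.

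Plk1, the polo kinase of spindle assembly, was at 7.97, 8.73, 8.21 and 7.73 in the same order, or -0.14 ± 0.41 (SE). Aurkb, the kinase of the chromosomal passenger complex, was at 8.05, 8.67, 7.998 and 7.35, or 0.01 ± 0.52 (SE). Its partner in that complex, Birc5, was lower in expansion in both tumors, while Aurkb was higher in expansion in tumor B, by 0.64. Plk4, which starts centriole duplication, was at 9.50, 10.57, 10.01 and 8.99, with clone differences of -1.08 (A) and 1.02 (B). The cyclins Ccna2 and Ccnb2 had clone differences of -0.57 and -1.02 for tumor A, beside 0.11 and 0.02 for tumor B. The centrosome kinase Nek2 had -0.59 for tumor A and 0.32 for tumor B. Its second brightest probe set, also above the median level, was lower in both tumors, by -0.24 and -0.32.

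**Figure D5:**
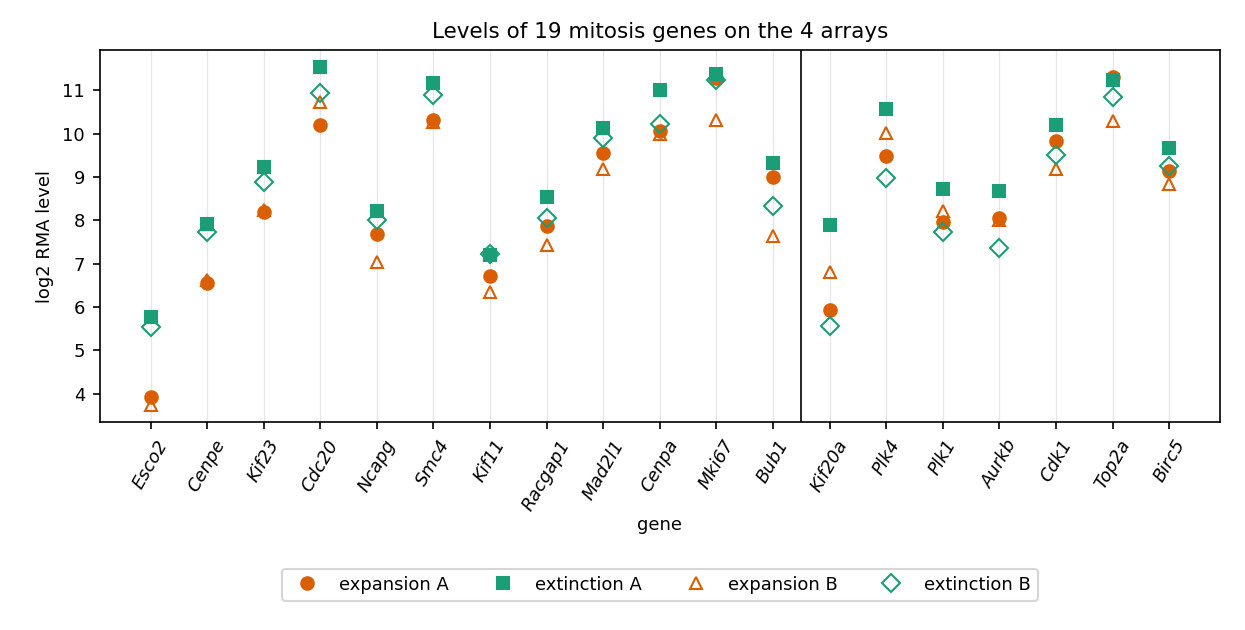
Log2 RMA levels of 19 mitosis genes on the 4 arrays, with circles and triangles for expansion, squares and diamonds for extinction, filled for tumor A and open for tumor B; each mark is 1 array. Left of the line are the 12 genes whose tumors share a sign, with a mean difference of at least 0.5 in size, among which Esco2 and Cenpe show the widest gap between the classes.

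Spindle checkpoint and anaphase genes split. Cdc20, the activator of the anaphase-promoting complex whose promoter is shown above, read 10.21 and 10.73 on expansion A and B, against 11.53 and 10.94 on extinction A and B, or -0.77 ± 0.33 (SE). The classes did not overlap, but the 2 other Cdc20 probe sets were higher in expansion of tumor B, by 0.30 and 0.23. Mad2l1, the checkpoint protein that holds Cdc20, read 9.54 and 9.18 on expansion A and B, against 10.12 and 9.89 on extinction A and B, or -0.64 ± 0.22 (SE), also without overlap. It has 1 probe set.

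Bub1, a checkpoint kinase, was at 8.99 on expansion A, 9.32 on extinction A, 7.64 on expansion B and 8.34 on extinction B. Its clone difference, -0.52 ± 0.65 (SE), was smaller than its error and was 0.16 without expansion B, and its larger difference was between the tumors. Ttk, the kinase that recruits the checkpoint, and Ube2c, the ubiquitin-conjugating enzyme of the anaphase-promoting complex, had clone differences below 0 for tumor A (-0.69 and -0.95) and above 0 for tumor B (0.79 and 0.19). Bub1b and Pttg1 (securin) had differences of 0.04 and 0.09 for tumor A, and of -0.64 and -0.26 for tumor B. The 2 other Pttg1 probe sets, both above the median level, had the reverse signs, at -0.65 and 0.28 and at -0.43 and 0.45.

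The probe sets that did not stand for a gene gave a second look. There were 53 for 30 genes, 28 of them at or above the median level of 5.83. Of these 28, 17 were highest on extinction A, 8 on extinction B, 2 on expansion A and 1 on expansion B. Over the 7884 such further probe sets of all named genes, the shares were 29.3%, 17.4%, 29.4% and 24.0%. Lower in expansion in both tumors were 10 of the 28 (12.7% of the 7884), and higher in both 0 (11.9%). Their median clone difference was -0.46 (tumor A) and -0.09 (tumor B). Of the 21 genes lower in both tumors, 10 had such a bright further probe set. All of them shared the signs for Cks2, Racgap1, Smc4, Ncapg and Ncaph, and none did for Cdc20, Cenpa, Cenpe, Kif11 and Kif2c.

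The study also set clones across tumors. In both clone classes 26 of the 44 genes were lower in tumor B, against 19.4% of all named genes. None was higher in both, against 2476 of the 18193 named genes. Both tumor B arrays lay below both tumor A arrays for 17 of the 44, against 13.9% of all. In the extinction class 40 were lower in tumor B (58.6% of all), 12 of them at least 2-fold (8.05% of all), and in the expansion class 30 were (46.9% of all). The median difference of tumor B minus tumor A was -0.42, with -0.20 within the expansion class and -0.60 within the extinction class, beside -0.02 for all named genes. The comparisons of clones and of tumors share all 4 arrays, extinction A on the higher side of each.

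Bub1 differed most between the tumors, by -1.16 ± 0.33 (SE, n = 2 per tumor), followed by Ect2, the exchange factor that starts the cleavage furrow, at -0.96 ± 0.27 (SE), and Ttk, at -0.95 ± 0.42 (SE). Top2a differed by -0.70 ± 0.26 (SE) and Cdk1 by -0.66 ± 0.24 (SE). Another Top2a probe set above the median level was highest on extinction B, at 8.78. By limma all 44 had an adjusted p = 1, and the test called 0.0% of all probe sets, and 2 of the 44, Bub1 and Ect2, had an unadjusted p under 0.05, against 1.44% of all probe sets and 1.04% of all named genes in that direction. Without extinction A, 29 of the 44 were lower in tumor B, in place of 42.

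Another 131 measured genes of mitosis were taken from 7 lists. By limma all 131 had an adjusted p = 1, and 5 had an unadjusted p under 0.05, against 1.04% of all probe sets. Their median clone difference was -0.11, 38 were lower in expansion in both tumors (14.1% of all named genes were) and 11 higher in both (17.3% of all). Extinction A was the highest array for 73 of the 131, and for 27.1% of all named genes. Of the 28 other kinetochore genes 9 were lower in both tumors and 0 higher, and of the 25 other spindle, motor and cytokinesis genes 13 were lower and 2 higher. For the 22 other checkpoint and anaphase genes, the counts were 3 and 2.

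The genes named from these lists have the largest difference of 1 sign in both tumors. Sororin (Cdca5), which holds sister chromatids together on cohesin acetylated by Esco2, read 9.05 and 8.92 on expansion A and B, against 9.93 and 9.80 on extinction A and B, a difference of -0.88 ± 0.15 (SE) that was alike in both tumors. Incenp and Cdca8 (borealin), which join Birc5 and Aurkb in the chromosomal passenger complex, differed by -0.74 ± 0.22 (SE) and -0.68 ± 0.21 (SE). Zwint, of the outer kinetochore, differed by -0.82 ± 0.28 (SE), Zwilch by -0.50 ± 0.21 (SE) and Fzr1 by -0.36 ± 0.25 (SE). The abscission protein Cep55 differed by -1.08 ± 0.50 (SE), nearly all of it in tumor A (-1.96, and -0.19 in tumor B).

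Kif18a and Kif22 differed by -0.70 ± 0.42 (SE) and -0.48 ± 0.14 (SE). The phosphatase Cdc25c, which switches on Cdk1, differed by -0.89 ± 0.25 (SE), and the Cdk cofactor Cks1b by -0.37 ± 0.27 (SE). The centriole gene Stil, a partner of Plk4, differed by -0.85 ± 0.37 (SE), and the cohesin subunit Rad21 by -0.38 ± 0.22 (SE). Higher in expansion in both tumors were Bora, an activator of Aurora A, at 0.85 ± 0.44 (SE), the cohesin release factor Wapl, at 0.39 ± 0.24 (SE), and Anapc2, at 0.19 ± 0.22 (SE).

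Transcriptional regulators of mitosis genes had a median difference of 0.00 over 22 genes. In both tumors 7 were lower (14.1% of all named genes) and 4 higher (17.3% of all). The repressor E2f8 differed by -0.87 ± 0.54 (SE), with nearly the same value in each tumor (-0.86 and -0.88), and Lin54, the MuvB subunit that binds the CHR, by -0.50 ± 0.30 (SE). Tfdp2, a partner of E2F proteins, differed by 0.98 ± 0.58 (SE). Foxm1, an activator of mitosis genes that was named after its values were seen, had clone differences of 0.13 (A) and -0.23 (B).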

How the data were processed

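The authors deposited log2 values, and the submitters' processing notes name RMA and affy. Tool versions and the probe grouping are not given in the sources used here. Because RMA corrects background, equalises distributions by quantiles and combines probes, a level on 1 array depends on the others. RNA was amplified in 2 rounds, per the labels' protocols, which favours 3 prime ends.

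The table held 45101 probe sets, 64 of them controls, and the other 45037 were tested. Genes were named from the platform annotation, with 34945 probe sets of 1 symbol, 932 of several (not named) and 9160 not listed. The arrays of a class are titled biological replicates. Differences were tested two-sided by lmFit and eBayes (limma 3.58.1, R 4.3.3), with adjustment over all tested probe sets and a threshold of 0.05. The step was also run on simulated data with independent errors, which does not show how it performs on these arrays. No test is possible within a tumor, where each class has 1 array. Same-numbered arrays share a tumor by their labels, yet their deviations from the class means correlated at -0.661 over 18193 genes.

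Of the 133 further mitosis genes, 131 were measured, and of 74 cell type markers 69. Erythroid genes (4 measured) had mean levels between 4.70 and 4.85 on the 4 arrays, the leukocyte list (14) between 5.45 and 5.62 and the fibroblast list (8) between 11.88 and 13.18. Members and lists were chosen with earlier results of these data known. Values on every array are given for members with 1 sign in both tumors and a mean difference of at least 0.5. They are also given for members 2-fold apart in opposite directions and for 8 fixed by name, of which Ccnb1 was not analysed. Smc2 and Aspm were added to these after their values were seen. The leukocyte markers Csf1r and Cd53 were not among the markers set beforehand to be named. Each further list gives up to 3 genes with the largest difference among those of 1 sign in both tumors. Ties between arrays were broken in array order. Alternatives were a replicate block, a level filter, renormalization, median subtraction, eBayes with trend, averaged probe sets and leaving out each array. Promoters came from RefSeq.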

Additional observations from a re-analysis of the deposited data

Results flagged for a closer look

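Kif20a and Plk4 had clone differences of opposite direction in the tumors, each at least 2-fold, as had 8.78% of all named genes. Both were lower in expansion in tumor A and higher in tumor B, as were 39.5% of all named genes. The difference of tumor A minus that of tumor B came to -3.20 (log2) for Kif20a and -2.10 for Plk4. With 1 array per class and tumor, this was not tested. Kif20a has 1 probe set. Plk4 has 2 further ones, 1 with the same signs (-0.50 for A and 0.11 for B) and 1 lower in expansion in both tumors (-0.24 and -1.41).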

How the results depend on the processing

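No mitosis gene, and none of the 131 further genes, passed limma's adjusted threshold under any setting run, with 2 to 9 of the 44 at an unadjusted p under 0.05 for the clones, 0 to 7 for the tumors, and 1 to 9 of the 131. Tumor as a replicate block left 2 of the 44 at that p in place of 6, and 0 called; it changed no call. The crossed pairing as a block, chosen after seeing the data, also called 0. The count of genes lower in expansion in both tumors was 21, between 20 and 23 under renormalization, median subtraction, averaged probe sets and the level filter, but 5 at 1.5-fold and 2 at 2-fold. The count highest on extinction A was between 35 and 40. The median difference ranged from -0.73 to -0.13 over the arrays left out, -0.13 without extinction A and -0.73 without extinction B. Bub1 ranged from -1.19 to 0.16 over the arrays left out, above 0 without the expansion array of tumor B. Among the 12 genes with 1 sign in both tumors and a mean difference of at least 0.5 in size, averaging all probe sets of a gene moved the difference by over 1.5 times for Cenpe (-1.23 to -0.56), Kif23 (-0.84 to -0.34), Smc4 (-0.74 to -0.46), Racgap1 (-0.65 to -0.34) and Bub1 (-0.52 to -0.07). Low signal limits what can be read from genes such as Esco2.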

Other observations

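Measured members with TTTGAA in a promoter window (25 genes) had a median clone difference of -0.47, and 20 of them were highest on extinction A. The 13 without it had a median of -0.38, and 11 were highest there. The split by promoter letters was a description and was not tested.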
